A study of Homo sapiens with 12 samples.

Results

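Aminoacyl-tRNA synthetases are the enzymes that join each amino acid to its tRNA, the step that sets the genetic code. The 35 genes described here were chosen by symbol, from a list of synthetase genes, and all 35 were found under their current symbols in the tables of both cell lines, out of 60314 named genes. Of these, 19 encode cytosolic enzymes, among which GARS1 (glycine) and KARS1 (lysine) also supply the mitochondria, and 16 encode enzymes that work only in mitochondria. Transcripts were measured by RNA sequencing in 2 human prostate cancer lines labelled wild type, C4-2B, which descends from LNCaP cells, and 22RV1, which was derived from a xenograft. The tested cells of each line received 56 mer (56-mer in what follows), the aptamer of the study, at 50 nM together with L-Gln (L-glutamine) at 2 mM for 48 h. The control cells received L-Gln at 2 mM alone for 48 h, and all cells were kept in glutamine-free RPMI-1640 medium with 5% FBS. Each of the 4 groups had 3 libraries, described as biological triplicates. The labels do not say whether these were separate cultures, so p-values measure the spread between these libraries only. Each group stands for a single cell line.

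Each synthetase activates its amino acid with ATP and transfers it to the matching tRNAs. Cytosolic enzymes charge the tRNAs that decode nuclear transcripts, and several of them sit in a large multi-synthetase complex held together by scaffold proteins. Mitochondrial enzymes are encoded in the nucleus, are imported, and charge the tRNAs made from mitochondrial DNA, which serve the translation of a handful of respiratory chain subunits. When an amino acid runs short, uncharged tRNA activates the kinase GCN2 and raises the transcription factor ATF4, and many cytosolic synthetase genes are known targets of ATF4. Glutamine supply therefore bears on this gene family, and QARS1 is the enzyme that charges tRNA with glutamine itself.

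Recovered reads numbered 8847368 to 13740386 per library. The prostate luminal markers KLK3, KLK2, HOXB13, FOLH1, KRT8, KRT18 and EPCAM were all measured above the filter in both lines. Of 14 markers of leukocytes, endothelium and fibroblasts, 4 passed the filter in each line. These were CD68, VWF, COL1A1 and PDGFRB in C4-2B, and CD68, COL1A1, COL1A2 and LUM in 22RV1. COL1A1 (fibroblasts) was the highest, with control means of 375 normalized read counts in C4-2B and 286 in 22RV1. VWF (endothelium) had 148 and CD68 (leukocytes) 142 in C4-2B controls. CD3E (T cells) and KDR (endothelium) were at 0 in all 12 libraries. Libraries differed in composition: relative to the mean of their line, log2 values correlated across genes with transcript length in C4-2B 56-mer 1 (Spearman rho −0.336, 10592 genes) and with GC content in 22RV1 56-mer 1 (−0.588, 12418 genes). In C4-2B 56-mer 2 and 3 the correlation with GC content was 0.306 and 0.318, against −0.213 to −0.0092 in the C4-2B controls. With transcript length it was 0.070 to 0.252 in these controls, above every C4-2B 56-mer library.

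The first comparison set the cytosolic enzymes against the mitochondrial ones in control cells. Levels are given as RPKM, reads scaled to the size of the library and to the length of the principal transcript in GENCODE 29, and members are not replicates, so the comparison carries no test. In C4-2B controls the median over the cytosolic members was 71.0 RPKM and that over the mitochondrial members 8.91 RPKM. In 22RV1 controls these medians were 51.0 and 15.0 RPKM. The ratio of the medians was 7.70 to 7.77 in the 3 C4-2B control libraries and 3.15 to 3.60 in the 3 of 22RV1. Among protein-coding genes the median cytosolic member stood at percentile 94.5 in C4-2B and 94.2 in 22RV1, and the median mitochondrial member at 70.4 and 74.7. Together the cytosolic transcripts took 0.432% ± 0.0033 of the reads of C4-2B controls, and the mitochondrial ones 0.0564% ± 0.0011 (SD, n = 3).

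Among the cytosolic genes, GARS1 had the highest C4-2B control level, with 136 ± 1.35 RPKM (SD, n = 3, as for all levels). SARS1, the seryl-tRNA synthetase, followed with 133 ± 11.5 RPKM and AARS1, the alanyl-tRNA synthetase, with 131 ± 3.53 RPKM, so that these 3 did not differ beyond the spread of SARS1. In 22RV1 controls the highest were AARS1 with 108 ± 4.06 RPKM and IARS1, the isoleucyl-tRNA synthetase, with 95.5 ± 3.68 RPKM. GARS1 came next there with 92.6 ± 3.50 RPKM, and its libraries overlapped those of IARS1. EPRS1 followed with 91.5 ± 1.82 RPKM, with libraries below those of IARS1 and overlapping those of GARS1.

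The lowest cytosolic level in both lines was that of FARSB, which encodes the beta subunit of the phenylalanyl-tRNA synthetase, with 22.6 ± 1.85 RPKM in C4-2B and 28.2 ± 0.671 RPKM in 22RV1. FARSA, which encodes the alpha subunit of the same enzyme, had 114 ± 4.22 RPKM in C4-2B and 55.3 ± 6.42 RPKM in 22RV1. In RPKM the transcripts of these partner subunits stood apart in both lines, although the enzyme is built from equal numbers of them. In 22RV1 this rests on the division by transcript length, 1814 bases for FARSA and 3369 for FARSB. The normalized read counts of the 22RV1 controls overlapped, with 1134, 1111 and 1358 for FARSA and 1132, 1172 and 1114 for FARSB. The coding lengths are closer, 1524 bases for FARSA and 1767 for FARSB. WARS1, the tryptophanyl-tRNA synthetase, came next in C4-2B with 32.9 ± 2.50 RPKM, and HARS1, the histidyl-tRNA synthetase, in 22RV1 with 29.5 ± 1.42 RPKM.

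Among the mitochondrial genes, CARS2 and IARS2, for cysteine and isoleucine, led in both lines. CARS2 had 44.3 ± 3.11 RPKM in C4-2B and 37.2 ± 4.16 RPKM in 22RV1, and IARS2 had 38.3 ± 3.56 RPKM in C4-2B and 53.1 ± 1.68 RPKM in 22RV1. Both lay within the range of the cytosolic members. The lowest were SARS2, with 1.56 ± 0.150 RPKM in C4-2B and 0.716 ± 0.243 RPKM in 22RV1, and VARS2, with normalized read counts of 35.3, 0 and 3.39 in the C4-2B control libraries and 11.999, 0 and 2.64 in those of 22RV1.

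These low values come with a counting limit. SARS2, the mitochondrial seryl-tRNA synthetase, shares 46.2% of its annotated exon bases on the same strand with the gene AC011455.2, and VARS2, the mitochondrial valyl-tRNA synthetase, shares 22.0% with GTF2H4. AC011455.2 and GTF2H4 were listed at 0 in all 12 libraries. How the authors' counting treated reads in overlapping genes is not given in the sources used here, and its part in the low values was not tested. Pseudogene copies of the members held at most 6.67 reads per library on average.

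**Figure D1:**
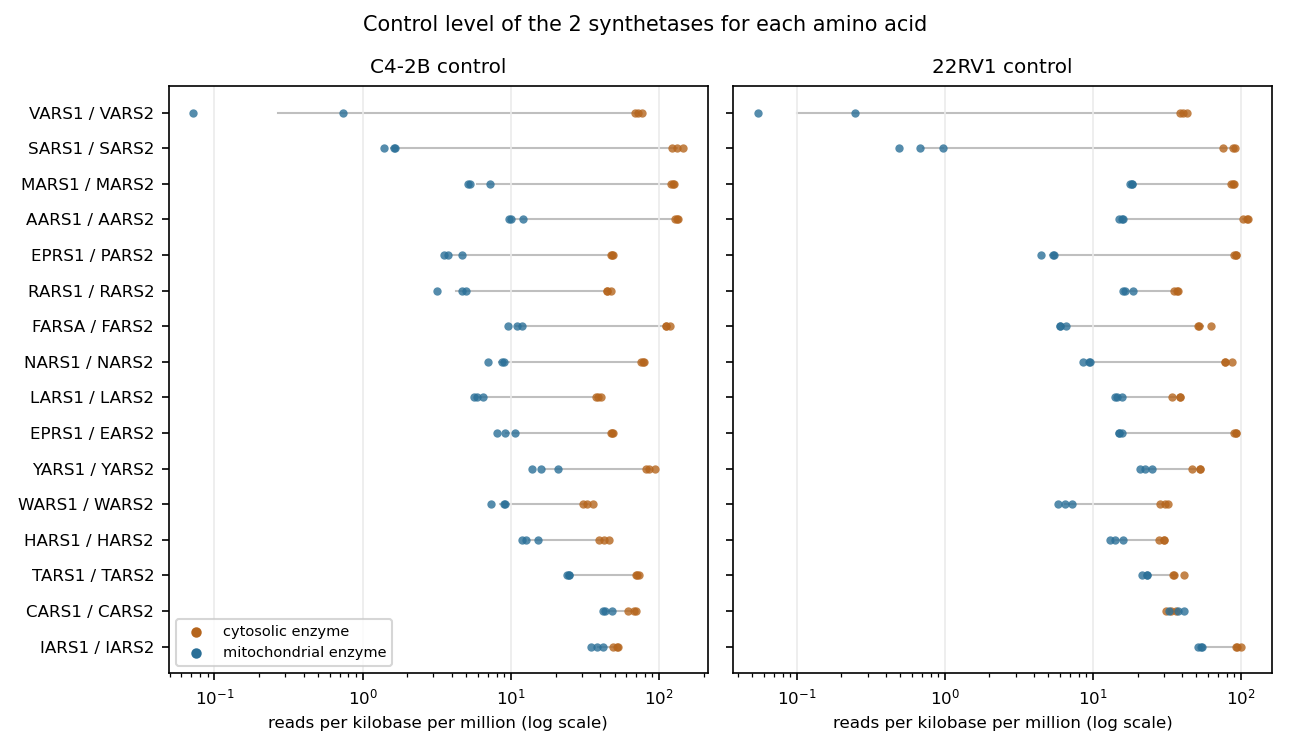
Control levels of the cytosolic (brown) and mitochondrial (blue) synthetase of each amino acid, in RPKM on a log axis, with 1 point per control library in C4-2B (left) and 22RV1 (right) and a grey line between the means; the phenylalanine row shows FARSA, EPRS1 appears for glutamate and for proline, and the VARS2 library at 0 in each line is not drawn. The cytosolic enzyme was higher in 16 of 16 rows in C4-2B and in 15 of 16 in 22RV1, the exception being CARS1 and CARS2.

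Paired by amino acid, with EPRS1 set against both EARS2 and PARS2 because it charges both glutamate and proline, the cytosolic transcript had the higher mean in 16 of 16 pairs in C4-2B and in 15 of 16 in 22RV1. The median ratio was 7.86 in C4-2B and 4.77 in 22RV1. The closest pair in C4-2B was IARS1 over IARS2, with a ratio of 1.33 (1.26 to 1.41 over the 3 libraries). In 22RV1 it was CARS1 over CARS2, with a ratio of 0.907 and a range of 0.832 to 1.02, so the order of this pair was not the same in all 3 libraries. The widest ratios were those of VARS1 over VARS2, 268 in C4-2B and 407 in 22RV1, and they rest on the few VARS2 reads described above. Next came SARS1 over SARS2, with 84.9 in C4-2B and 119 in 22RV1. Of the pairs outside the counting limit, MARS1 over MARS2, for methionine, was the widest in C4-2B with a ratio of 21.0, and it was 4.84 in 22RV1.

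Set side by side, most cytosolic transcripts had higher control levels in C4-2B, while the mitochondrial ones were divided much as all genes were. The authors normalized the tables of the lines separately. These levels were computed from the recovered reads and were not tested between the lines. With reads scaled to library size, the 3 libraries of C4-2B lay above those of 22RV1 for 13 of the 19 cytosolic members and below them for 3, and above for 5 and below for 7 of the 16 mitochondrial members. Over the 15527 genes tested in both lines, 30.1% lay above without overlap and 46.4% below. The mean was higher in C4-2B for 15 of 19 cytosolic members and 6 of 16 mitochondrial members, beside 41.2% of all these genes. The median ratio of C4-2B over 22RV1 was 1.41 for the cytosolic members, 0.844 for the mitochondrial members and 0.816 for all these genes.

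The lowest ratio of a mitochondrial member was that of RARS2, the arginyl-tRNA synthetase, with 4.28 ± 0.972 RPKM in C4-2B and 17.0 ± 1.46 RPKM in 22RV1. MARS2 had 5.88 ± 1.15 RPKM in C4-2B and 18.1 ± 0.297 RPKM in 22RV1, and LARS2, the leucyl-tRNA synthetase, had 6.05 ± 0.436 RPKM in C4-2B and 14.8 ± 0.886 RPKM in 22RV1. In these 3 genes no C4-2B library reached a 22RV1 library. The cytosolic enzymes for the same amino acids were higher in C4-2B or level: RARS1 had a ratio of C4-2B over 22RV1 of 1.24, MARS1 of 1.41 and LARS1 of 1.04, and the libraries of LARS1 overlapped.

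Among the cytosolic members, EPRS1 and IARS1 ran against the class, with a ratio of 0.526 for EPRS1 (48.1 ± 0.936 RPKM in C4-2B and 91.5 ± 1.82 in 22RV1) and of 0.535 for IARS1 (51.1 ± 1.93 in C4-2B and 95.5 ± 3.68 in 22RV1). FARSB was the third, with a ratio of 0.802. At the other end stood FARSA with a ratio of 2.06, CARS1 with 1.97 and TARS1, the threonyl-tRNA synthetase, with 1.92. QARS1 had 48.1 ± 5.54 RPKM in C4-2B and 34.8 ± 1.05 RPKM in 22RV1. EARS2, which charges mitochondrial tRNAs with glutamate, including the glutamine tRNA that is then converted by an amidotransferase, had 9.32 ± 1.33 RPKM in C4-2B and 15.2 ± 0.400 RPKM in 22RV1.

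**Figure D2:**
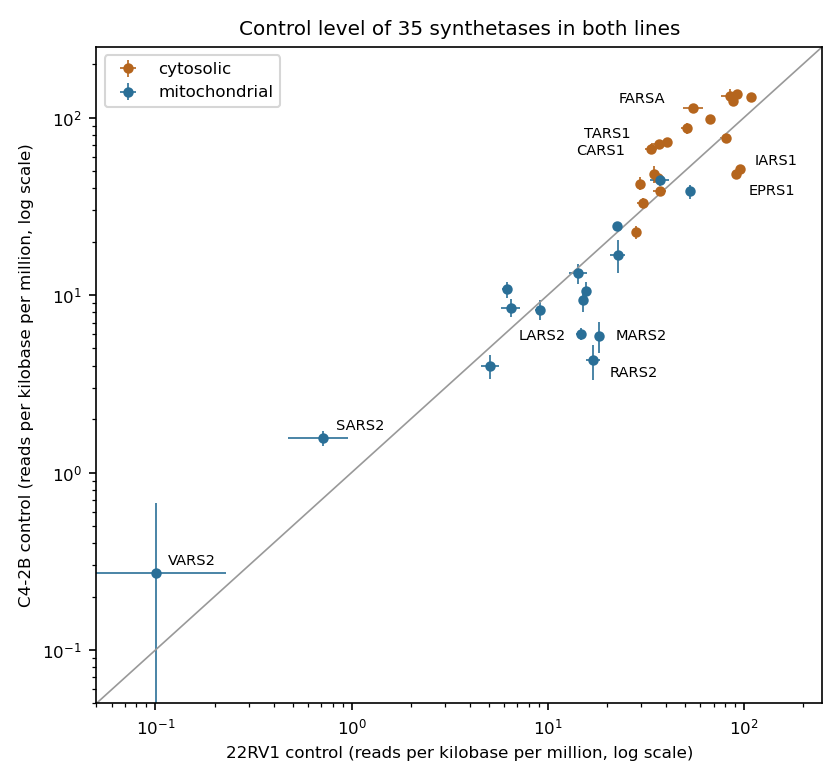
Mean control level of each synthetase in C4-2B (vertical axis) and 22RV1 (horizontal axis), in RPKM on log axes, with bars for the SD of 3 libraries and a line of equal levels. RARS2, MARS2 and LARS2 lie below the line, with 4.28, 5.88 and 6.05 RPKM in C4-2B and 17.0, 18.1 and 14.8 RPKM in 22RV1; FARSA, CARS1 and TARS1 lie above it.

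The second comparison asked whether the synthetase transcripts differed when 56-mer was added to cells supplied with glutamine. Because ATF4 acts on these genes through a short promoter element, the promoters are shown first. RefSeq promoters (GRCh38.p14, 250 bases before to 50 after the annotated start) were matched for 30 of the 35 members; LARS1, VARS1, YARS1, AARS2 and VARS2 had no match. The C/EBP-ATF response element (CARE) was searched as TGATGNAA on both strands, and this search and those below were chosen after the 56-mer values had been seen. The element was found in 6 of 16 cytosolic promoters and in 1 of 14 mitochondrial promoters, against 3.67% of 27305 promoters of this length in the table and 2.53% of 15071 protein-coding ones. All 6 cytosolic matches read TGATGCAA or, on the other strand, TTGCATCA, and the mitochondrial match, in YARS2 for tyrosine, read TGATGGAA. Each match is given in capitals within its surroundings, on the strand of the gene, because these are the members that the change with 56-mer is later read against. Each lay between 187 bases before and 15 bases after the start, except that of YARS2, which lay 197 bases before it.
AARS1 (chr16:70289666-70289713, minus strand): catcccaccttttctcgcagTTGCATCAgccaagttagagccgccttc
CARS1 (chr11:3057398-3057445, minus strand): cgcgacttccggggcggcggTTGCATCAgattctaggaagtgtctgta
IARS1 (chr9:92293683-92293730, minus strand): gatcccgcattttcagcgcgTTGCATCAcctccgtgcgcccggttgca
MARS1 (chr12:57488044-57488091, plus strand): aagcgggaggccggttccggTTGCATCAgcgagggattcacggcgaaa
NARS1 (chr18:57621795-57621842, minus strand): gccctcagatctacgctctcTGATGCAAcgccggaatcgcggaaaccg
TARS1 (chr5:33440947-33440994, plus strand): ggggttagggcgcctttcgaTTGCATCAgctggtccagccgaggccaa
YARS2 (chr12:32756067-32756114, minus strand): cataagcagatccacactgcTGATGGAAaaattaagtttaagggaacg
In CARS1, IARS1, MARS1, NARS1 and TARS1 the element sits at the start itself, within 15 bases of it. None of the 7 matches overlapped the E-box CACGTG. All 6 cytosolic genes belong to the 12 listed from general knowledge as ATF4 targets, 10 of which had a promoter in the table. A match is a description of the letters in this window and not a sign of binding.

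The other motifs were found more evenly, on both strands. The E-box CACGTG was in 1 of 16 cytosolic and 3 of 14 mitochondrial promoters (7.43% of all promoters and 8.88% of protein-coding ones). The NRF1 motif was in 3 of 16 and 3 of 14 (6.28% and 8.56%), and the ETS motif CCGGAAGT in 4 of 16 and 3 of 14 (4.44% and 6.33%). HARS1 and HARS2, the cytosolic and the mitochondrial histidyl-tRNA synthetase, lie head to head with 85 bases between their annotated starts, so their promoters share a stretch that holds 2 ETS matches. This shared stretch counts in both classes above. The stretch common to both promoters is shown on the strand of HARS2, with the ETS matches in capitals, because it serves 1 enzyme of each compartment.
HARS1 and HARS2 (chr5:140691321-140691504, plus strand): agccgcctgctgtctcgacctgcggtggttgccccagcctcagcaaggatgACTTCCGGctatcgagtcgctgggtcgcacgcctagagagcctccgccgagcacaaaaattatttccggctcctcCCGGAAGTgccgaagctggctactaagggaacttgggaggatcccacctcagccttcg
In GENCODE 29 the exons of the pair share 437 bases on opposite strands, 11.7% of those of HARS2, and whether the counting used strand is not given in the sources used here.

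With 56-mer no synthetase changed past the adjusted threshold in either line. In C4-2B 0 of 35 tested members passed an adjusted p of 0.05 in limma, where 0.066% of the 16657 genes tested did. In 22RV1 0 of 34 passed, where 0.00975% of 20517 did. VARS2 was left untested in 22RV1 for its low counts, and in C4-2B it passed the filter largely through its 56-mer libraries. The number of members with an unadjusted p under 0.05 was 5 in C4-2B, 4 of them higher (all cytosolic) and 1 lower with 56-mer, against 4.89% of all genes higher and 4.03% lower (8.92% in all). It was 0 in 22RV1, against 1.76% higher and 2.15% lower (3.91% in all). In bulk RNA a smaller number of expressing cells and less RNA per cell cannot be told apart. The edgeR quasi-likelihood test on the recovered reads called no member in either line, and DESeq2 called only VARS1, in C4-2B.

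The class medians moved little. In C4-2B the median log2 change with 56-mer was 0.056 for the cytosolic members, of which 11 of 19 were higher. It was 0.0002 for the mitochondrial ones, of which 8 of 16, VARS2 among them, were higher. With a mean of at least 50 required, which leaves out SARS2 and VARS2, 7 of 14 were higher and the median was again 0.0002. Over all genes tested the median was −0.011, with 48.3% higher. In 22RV1 the medians were 0.046 (16 of 19 higher) and 0.0046 (9 of 15 higher), beside −0.0026 over all genes and 49.4% higher. The 22RV1 cytosolic count was 12 of 19 without 56-mer 1, the library with the strongest GC trend, and 13 of 19 without control 3, where the median was 0.018; without control 2 the median was 0.080 and without 56-mer 3 it was 0.071. The share of reads taken by the cytosolic transcripts was 0.434% ± 0.0135 with 56-mer and 0.432% ± 0.0033 in control in C4-2B, and that of the mitochondrial transcripts 0.0551% ± 0.0040 with 56-mer and 0.0564% ± 0.0011 in control (SD, n = 3). In both classes the 56-mer and control ranges overlapped. In C4-2B both medians were highest in 56-mer 1. Relative to the control mean, the cytosolic median was 0.11 in 56-mer 1 and 0.018 and −0.0068 in 56-mer 2 and 3, and the mitochondrial median was 0.19 in 56-mer 1 and −0.081 and −0.017 in 56-mer 2 and 3. Without 56-mer 1 the fitted C4-2B median was 0.024 for the cytosolic members and −0.064 for the mitochondrial ones, and without 56-mer 3 the cytosolic median was 0.091. Leaving out 1 library in turn gave mitochondrial medians of −0.064 to 0.082 in C4-2B. In the C4-2B 56-mer libraries 1 to 3 the correlation with transcript length was −0.336, −0.106 and 0.014. In controls 1 to 3 it was 0.070, 0.201 and 0.252, so it differed between the groups without overlap. The part of this in the medians was not tested.

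**Figure D3:**
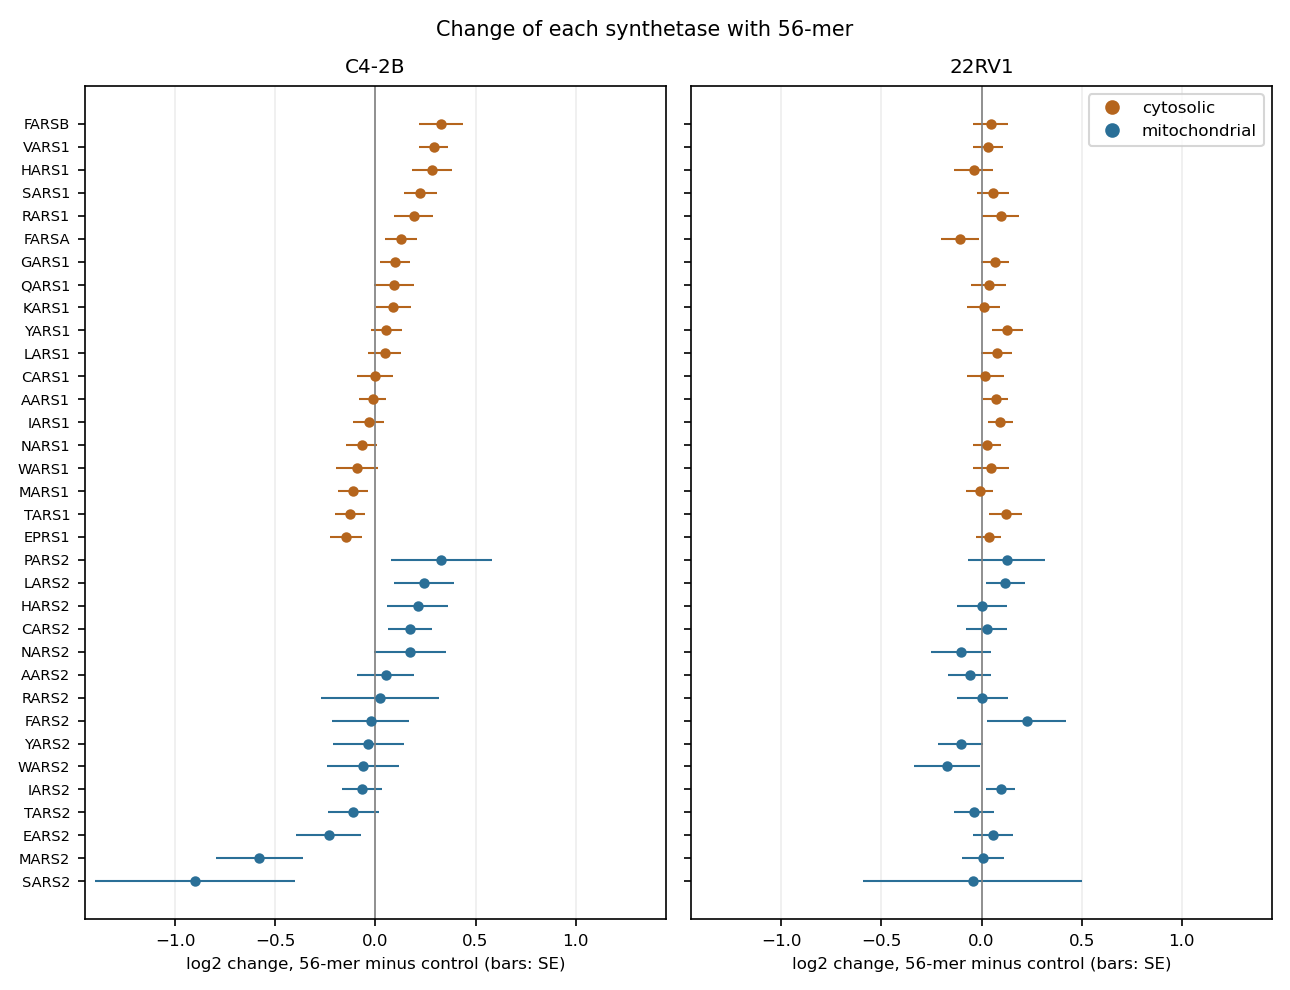
Fitted log2 change with 56-mer against control for each synthetase in C4-2B (left) and 22RV1 (right), with bars for the SE (n = 3 per group); cytosolic members (brown) and mitochondrial members (blue) are each ordered by their change in C4-2B, and VARS2 is left out. Cytosolic changes in C4-2B ran from −0.15 for EPRS1 to 0.33 for FARSB, while in 22RV1 they lay between −0.11 and 0.13.

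Among the cytosolic members in C4-2B, VARS1, the valyl-tRNA synthetase, had the smallest p. Its normalized read counts were 4406, 4673 and 4294 with 56-mer, and 3623, 3475 and 3828 in control. The groups did not overlap, and the log2 change was 0.29 ± 0.073 (SE, limma adjusted p = 0.222). With DESeq2 it passed (adjusted p = 0.0253), as it did without the 56-mer 1 library (limma adjusted p = 0.0184), within a range of 0.0184 to 0.776 over all alternatives. In the authors' deposited DESeq comparison for C4-2B the smallest adjusted p of any gene was 0.447, so VARS1 did not pass there. In 22RV1 VARS1 had 2001, 2171 and 2287 with 56-mer and 2213, 2090 and 2005 in control, with overlap and a log2 change of 0.033 ± 0.076.

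FARSB had 1213, 1021 and 1118 normalized read counts with 56-mer and 963, 903 and 803 in control in C4-2B. All 3 56-mer libraries stood above the controls, with a log2 change of 0.33 ± 0.11 (adjusted p = 0.407). Its partner FARSA had 2670, 2559 and 2676 with 56-mer and 2534, 2362 and 2339 in control, also without overlap, with a log2 change of 0.13 ± 0.080. In 22RV1 FARSB had a log2 change of 0.047 ± 0.088 and FARSA −0.11 ± 0.094, both with overlap.

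HARS1 had 1587, 1419 and 1405 normalized read counts with 56-mer in C4-2B and 1119, 1313 and 1193 in control, which gave 0.28 ± 0.10 (adjusted p = 0.443). Its head-to-head neighbour HARS2 had 493, 470 and 383 with 56-mer and 374, 348 and 441 in control, with overlap and a log2 change of 0.21 ± 0.15. In 22RV1 HARS1 had −0.039 ± 0.097 and HARS2 0.0003 ± 0.12. Both genes of the pair thus had their larger value in C4-2B, without passing the test.

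SARS1 had 3367, 3418 and 3247 normalized read counts with 56-mer in C4-2B and 3157, 2647 and 2798 in control. The lowest 56-mer library stood just above the highest control, and the log2 change was 0.23 ± 0.081 (adjusted p = 0.452). RARS1 was the other cytosolic member without overlap on the higher side, with 1331, 1311 and 1254 with 56-mer and 1193, 1120 and 1101 in control. It was also the only cytosolic member without overlap in 22RV1, where it had 1014, 1014 and 987 with 56-mer and 906, 965 and 953 in control. Its log2 change was 0.19 ± 0.097 in C4-2B and 0.095 ± 0.092 in 22RV1.

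On the lower side in C4-2B stood EPRS1, TARS1 and NARS1, the glutamyl-prolyl-, threonyl- and asparaginyl-tRNA synthetases. EPRS1 had 2722, 2586 and 2332 normalized read counts with 56-mer and 2827, 2768 and 2842 in control, a log2 change of −0.15 ± 0.081 (adjusted p = 0.619). TARS1 had 3439, 3205 and 3164 with 56-mer and 3677, 3571 and 3463 in control, a log2 change of −0.13 ± 0.075. NARS1 had 2716, 2620 and 2637 with 56-mer and 2829, 2726 and 2807 in control, a log2 change of −0.069 ± 0.077. None of the 3 was lower in 22RV1, where EPRS1 had 0.036 ± 0.063, TARS1 0.12 ± 0.083 and NARS1 0.026 ± 0.070.

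In all, the groups did not overlap for 7 members that were higher with 56-mer in C4-2B and for 5 that were lower, against 7.59% of all genes higher and 7.08% lower (14.7% in all). In 22RV1 there were 2, both higher, against 4.45% of all genes higher and 4.58% lower (9.03% in all). The second of these was IARS2, with 2613, 2327 and 2329 normalized read counts with 56-mer and 2303, 2315 and 2177 in control and a log2 change of 0.095 ± 0.074. The 22RV1 member with the smallest p was YARS1, the tyrosyl-tRNA synthetase, with 2249, 2201 and 2039.7 with 56-mer and 2055, 2065 and 1818 in control. Its groups overlapped, with a log2 change of 0.13 ± 0.077 (limma adjusted p = 0.99958, the smallest of any member in 22RV1). IARS1 followed with 6105, 5647 and 5323 with 56-mer and 5222, 5578 and 5179 in control, a log2 change of 0.094 ± 0.062.

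QARS1, the glutamine enzyme, had 1799, 1695 and 1573 normalized read counts with 56-mer and 1805, 1442 and 1516 in control in C4-2B. In 22RV1 it had 1120.6, 1280.3 and 1233 with 56-mer and 1143, 1185 and 1212 in control. The groups overlapped in both lines, with log2 changes of 0.094 ± 0.099 in C4-2B (95% interval −0.11 to 0.30) and 0.036 ± 0.088 in 22RV1 (−0.14 to 0.21). EARS2, the mitochondrial glutamate enzyme, had 415, 389 and 298 with 56-mer and 499, 424 and 369 in control in C4-2B, with overlap and a log2 change of −0.23 ± 0.16. Both C4-2B values depended on single libraries: QARS1 had 0.028 without control 2 and 0.19 without control 1, and EARS2 had −0.090 without 56-mer 3 and −0.34 without control 3. In 22RV1 it had 722, 768 and 760.0 with 56-mer and 708, 744 and 708 in control, a log2 change of 0.058 ± 0.10.

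**Figure D4:**
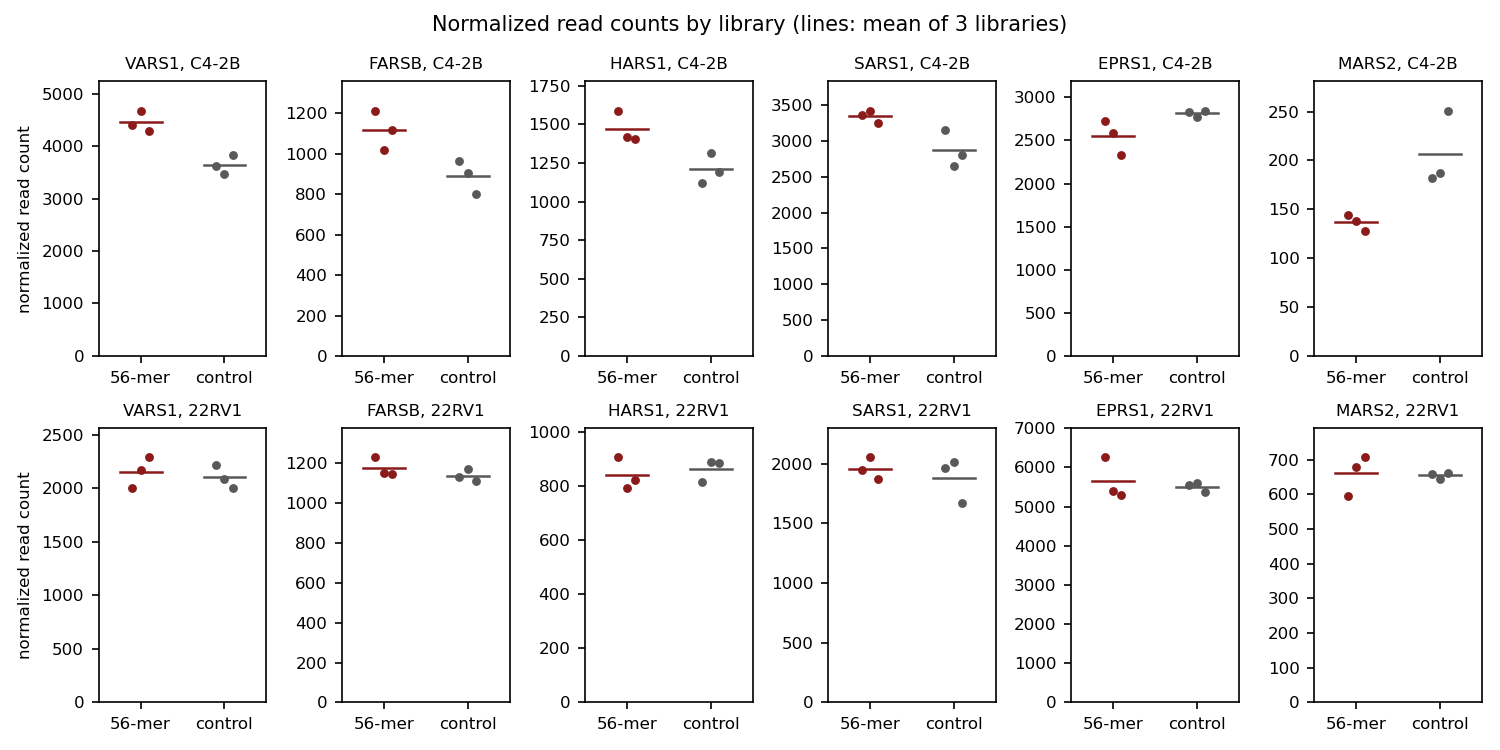
Normalized read counts of 6 synthetases in every library, 56-mer (red, left) and control (grey, right), in C4-2B (top) and 22RV1 (bottom), with a line at the mean of 3 libraries. In C4-2B the groups do not overlap in any of the 6 genes, with VARS1, FARSB, HARS1 and SARS1 higher and EPRS1 and MARS2 lower with 56-mer; in 22RV1 they overlap in all 6.

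Among the mitochondrial members, MARS2, the methionyl-tRNA synthetase, had the smallest p in C4-2B. Its normalized read counts were 144, 138 and 128 with 56-mer and 182, 187 and 251 in control, without overlap, and the log2 change was −0.58 ± 0.22 (adjusted p = 0.456). Without the highest control library, control 3, the log2 change was −0.43. In 22RV1, where MARS2 is expressed at a higher level, it had 596, 680.5 and 707 with 56-mer and 659.9, 646 and 662 in control, with overlap and a log2 change of 0.0075 ± 0.11.

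SARS2 was the second mitochondrial member without overlap on the lower side in C4-2B, with 20.6, 16.2 and 22.4 normalized read counts with 56-mer and 39.6, 39.9 and 33.0 in control. At these counts the fitted log2 change was −0.90 ± 0.50 (adjusted p = 0.614). In 22RV1 it had 24.1, 10.9 and 16.8 with 56-mer and 24.0, 12.2 and 16.7 in control. LARS2 was the mitochondrial member without overlap on the higher side in C4-2B, with 395, 387 and 403 with 56-mer and 364, 315 and 325 in control and a log2 change of 0.24 ± 0.15. VARS2 had 24.5, 26.7 and 14.6 with 56-mer and 35.3, 0 and 3.39 in control in C4-2B, so that the control libraries lay on both sides of the 56-mer ones.

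The difference between the lines was tested in 1 fit of the 12 libraries. It passed the threshold for 0 of the 34 members tested, and for 0 (0%) of all 15527 genes, of which 1227 (7.9%) had an unadjusted p under 0.05. Among the members 5 did: MARS2, VARS1, HARS1, FARSB and TARS1. The smallest p was that of MARS2, with a difference of C4-2B minus 22RV1 of −0.59 ± 0.21 (adjusted p = 0.546). VARS1 followed with 0.26 ± 0.10 (adjusted p = 0.594) and HARS1 with 0.32 ± 0.13 (adjusted p = 0.614). The 95% intervals of these were −1.02 to −0.15 for MARS2, 0.045 to 0.47 for VARS1 and 0.044 to 0.60 for HARS1, before adjustment.

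The cytosolic members were also divided by whether general knowledge lists them as ATF4 targets, a comparison added after their values were seen and given as a description with no test. In C4-2B the 7 members not listed as ATF4 targets (FARSA, FARSB, HARS1, KARS1, QARS1, RARS1 and VARS1) were all higher with 56-mer. Their median log2 change was 0.19, with a range of 0.089 to 0.33, and 48.3% of all genes tested were higher. Of the 12 that are listed, 4 were higher in C4-2B, with a median of −0.024. The 6 with the CARE element shown above all had values below 0 in C4-2B. TARS1 had −0.13, MARS1 −0.11, NARS1 −0.069, IARS1 −0.034, AARS1 −0.014 and CARS1 −0.0006. The values of IARS1, AARS1, CARS1 and NARS1 were within their SE of 0, and CARS1 and AARS1 changed sign under some alternatives. The 10 members whose promoter lacked the element had a median of 0.11, with 8 higher. In 22RV1 the 6 with the element had a median of 0.048, with 5 of 6 higher, and the 10 without it 0.041, with 8 of 10 higher.

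By library, the median of the 7 unlisted members relative to the control mean was 0.25, 0.20 and 0.15 in the C4-2B 56-mer libraries and 0.069, −0.022 and −0.043 in the controls. That of the 12 listed members was 0.012, −0.027 and −0.086 with 56-mer and 0.021, −0.0028 and −0.019 in control. The unlisted group thus stood above all controls in each 56-mer library, and the listed group did not. All 7 unlisted members were higher in C4-2B under each of the 16 alternatives. These reuse the same libraries, and the split was chosen after the values were seen, so they lend it no further support. With the correction for GC content and length the median was 0.19. The median GC content of the transcripts was 54.4% for the unlisted members and 50.2% for the listed ones. Their median transcript lengths were 2440 and 3168.5 bases, in that order. The part of GC content and length in this split was not tested. In 22RV1 the unlisted members had a median of 0.033 with 5 of 7 higher, and the listed ones 0.064 with 11 of 12 higher. Of all genes tested in 22RV1, 49.4% were higher. There the unlisted median by library was 0.064, 0.047 and 0.045 with 56-mer and −0.055, 0.037 and 0.030 in control, also without overlap but by a smaller margin.

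**Figure D5:**
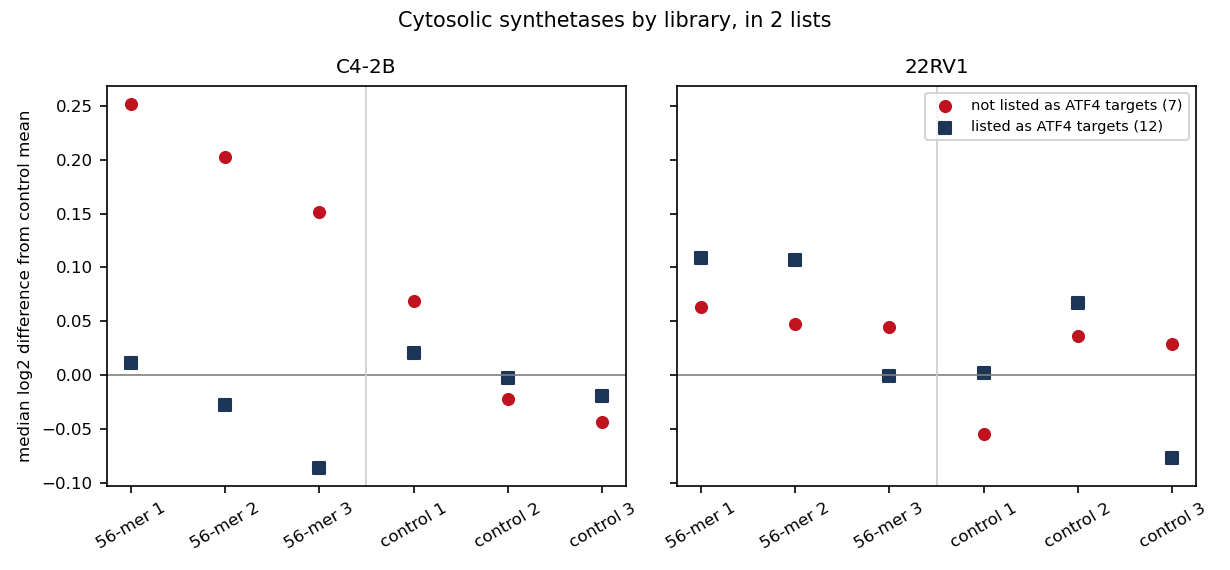
Median log2 difference from the control mean over the 7 cytosolic synthetases not listed (circles) and the 12 listed (squares) as ATF4 targets, for each 56-mer library (left of the grey line) and control library (right of it), in C4-2B and 22RV1. In C4-2B the circles with 56-mer lie at 0.15 to 0.25, above all controls, and the squares between −0.086 and 0.012; in 22RV1 the circles with 56-mer lie at 0.045 to 0.064 and the squares between −0.0005 and 0.11.

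The ATF4 response itself was read from 12 genes: the sensor kinase EIF2AK4 (GCN2), ATF4, and the targets or amino acid genes ASNS, CHAC1, TRIB3, DDIT3, SESN2, PSAT1, PHGDH, SLC7A11, SLC3A2 and DDIT4. In C4-2B 1 of the 12 rose and 0 fell: CHAC1, an enzyme that degrades glutathione, had 2157, 2306 and 2134 normalized read counts with 56-mer and 1449, 1633 and 1536 in control, a log2 change of 0.52 ± 0.088 (limma adjusted p = 0.0241). No gene, and so not CHAC1, passed with edgeR or when any library other than 56-mer 1 was left out. In 22RV1 CHAC1 had −0.032 ± 0.18. ATF4 itself had 11071, 9516 and 9827 normalized read counts with 56-mer and 10207, 10029 and 9513 in control, a log2 change of 0.029 ± 0.065 with overlap. SESN2, a leucine sensor, had 0.31 ± 0.10 (adjusted p = 0.397), PHGDH, the first enzyme of serine synthesis, 0.18 ± 0.057 (0.392), and ASNS, the asparagine synthetase, −0.043 ± 0.25. In 22RV1 0 of the 12 passed, and the smallest p was that of ASNS, with 0.51 ± 0.19.

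Genes that work next to the synthetases were read from short lists. None of the 3 scaffold proteins of the multi-synthetase complex (AIMP1, AIMP2 and EEF1E1) passed in either line, with log2 changes of −0.075 to 0.025 in C4-2B and −0.25 to 0.041 in 22RV1. The 7 synthetases of that complex had a median of 0.047 in C4-2B, with 4 of 7 higher, and 0.036 in 22RV1, with 6 of 7 higher. Of tRNA export and cytosolic elongation, 0 of 5 tested genes passed in either line, and EEF1G was listed at 0 in all 12 libraries. As for AC011455.2 and GTF2H4, the part of the counting in this 0 was not tested. It is therefore not read as absence of the EEF1G transcript. XPOT, the exporter of tRNA from the nucleus, had 2669.8, 2875 and 2589 normalized read counts with 56-mer and 3009, 3194 and 3114 in control in C4-2B, without overlap, and a log2 change of −0.20 ± 0.078 (adjusted p = 0.483). EEF1D, an exchange factor of the elongation factor that delivers charged tRNA, had 0.21 ± 0.067 (0.392) there.

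On the mitochondrial side, QRSL1, GATB and GATC form the amidotransferase that makes glutaminyl-tRNA, and MTFMT formylates the initiator methionyl-tRNA that MARS2 supplies. None of these 4 passed in either line. QRSL1 had −0.072 ± 0.18 in C4-2B and 0.027 ± 0.15 in 22RV1, and MTFMT had 0.11 ± 0.19 in C4-2B and 0.23 ± 0.16 in 22RV1. Of the mitochondrial elongation factors 3 of 4 were tested in C4-2B and 4 of 4 in 22RV1, and 0 passed. TUFM, which delivers charged tRNA to the mitochondrial ribosome, had −0.017 ± 0.085 in C4-2B and −0.066 ± 0.072 in 22RV1. GFM1, the translocation factor, had −0.26 ± 0.14 in C4-2B and 0.091 ± 0.10 in 22RV1, and GFM2, the recycling factor, had −0.21 ± 0.13 in C4-2B and 0.014 ± 0.099 in 22RV1. TSFM, the exchange factor of TUFM, was tested only in 22RV1, with 25.9, 50.6 and 39.8 normalized read counts with 56-mer and 34.0, 11.2 and 20.2 in control, with overlap and a log2 change of 0.88 ± 0.44.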

How the data were processed

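Total RNA was sequenced in 12 libraries of 2 cell lines. The authors deposited, per line, normalized values (signal: per-gene read counts, each library scaled by its own size factor) and a comparison table with, per the file headers, log2 fold changes, their errors, a Wald score and p-values; DESeq is named in the submitters' processing notes. Apart from its smallest adjusted p in C4-2B, the deposited comparison is not used for the results. Nothing used here names the aligner, counting tool, strand use, build or annotation. Whole reads were recovered for 100% of values within 0.01 read. Genes with a value of at least 10 in at least 3 of 6 libraries were tested with limma 3.58.1 (R 4.3.3). The test, with intensity trend and robust moderation, was on log2(value + 1), two-sided, Benjamini-Hochberg over all genes, threshold 0.05. A fold change on this scale can understate that of low genes, or overstate it where a library is at 0. RPKM was computed from recovered reads. Errors of changes are SE and intervals 95%. Alternatives were other scalings, filters, pseudocounts, edgeR 4.0.16, DESeq2 1.42.0, a GC and length correction, and leaving out each library. The script was tested on simulated data. The members, the lists and the naming rule (smallest p, highest and lowest levels, widest and closest pairs, glutamine and glutamate enzymes) were chosen with earlier results of these data known; members named only for not overlapping, for the line ratio, for CARE or for the ATF4 list were chosen after their values were seen. Sequences are from RefSeq.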

Additional observations from a re-analysis of the deposited data

How the results depend on the processing

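No paired analysis was possible because no replicate numbers tie libraries across groups; library numbers are record order only. The number of members past the threshold in C4-2B was 0 under all alternatives except 1 (VARS1) with DESeq2 and 1 (VARS1) without C4-2B 56-mer 1, a range of 0 to 1 when each library was left out; it was 0 throughout in 22RV1 and for the difference. All genes past the threshold ranged from 0 to 81 in C4-2B (0 with edgeR, 1 without trend or robust variance, 34 without a filter, 42 with DESeq2, 81 without 56-mer 1, 0 without any other library), from 0 to 11 in 22RV1 and from 0 to 13 for the difference. The cytosolic median in C4-2B was 0.0025 under quantile normalization, where that of the ATF4-listed members was −0.080. The mitochondrial median in 22RV1 ranged from −0.020 to 0.043 when libraries were left out. The log2 ratio of class levels in controls was 2.99 in C4-2B, and there 3.18 without division by length, 2.54 per coding kilobase, 2.95 over pairs, 2.90 without GARS1 and KARS1, 2.81 per merged exons and 2.83 without SARS2 and VARS2. It was 1.77 in 22RV1, and there 1.92 without division by length, 2.25 over pairs, 1.44 without GARS1 and KARS1 and 1.54 per merged exons. With a control left out it was 2.95 to 2.99 in C4-2B and 1.72 to 1.77 in 22RV1. The sign of the change was the same under all alternatives for 16 of 19 cytosolic and 9 of 16 mitochondrial members in C4-2B, and for 9 of 19 and 9 of 15 in 22RV1, where NARS1 and HARS2 are among those that changed sign. Among the members examined one by one, the changes of sign were these. In C4-2B AARS1 was 0.011 without control 1 (−0.041 to 0.011 when libraries were left out), and CARS1 was 0.0041 with edgeR, 0.00040 with DESeq2 and −0.077 to 0.045 when libraries were left out. In 22RV1 MARS2 was −0.0090 with equal totals, and the values when libraries were left out ranged from −0.0052 to 0.091 for QARS1, −0.039 to 0.081 for EPRS1, −0.043 to 0.080 for MARS2, −0.011 to 0.085 for VARS1 and −0.093 to 0.0016 for HARS1. The cause of these shifts was not tested. Depth limits SARS2 and VARS2, at under 50 normalized reads.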

Other observations

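The protein-coding transcripts of the mitochondrial genome are translated with the tRNAs that the mitochondrial synthetases charge. Reads were summed over all genes with a symbol starting with MT-, so rRNA and tRNA genes were not set apart. In C4-2B these genes took 8.03% ± 0.236 of the reads with 56-mer and 7.65% ± 0.0493 in control (SD, n = 3). The ranges were 7.84% to 8.29% with 56-mer and 7.60% to 7.69% in control. In 22RV1 they took 6.09% ± 0.388 with 56-mer and 5.48% ± 0.143 in control, with ranges of 5.74% to 6.51% and 5.32% to 5.57%. The groups did not overlap in either line, and the difference was not tested. Among single genes tested, 7.59% in C4-2B and 4.45% in 22RV1 were also higher with 56-mer without overlap.

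Of 5 proteins related to synthetases (TARS3, AARSD1, DTD1, SEPSECS and PSTK), 0 passed the threshold in either line. DTD1, which removes D-amino acids from tRNA, had a log2 change with 56-mer of 0.41 ± 0.28 in C4-2B and −0.052 ± 0.21 in 22RV1. PSTK and SEPSECS, which act on the serine of selenocysteine tRNA, had 0.24 ± 0.16 and −0.21 ± 0.25 in C4-2B.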
